A study of Homo sapiens with 6 samples.

Results

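The genes described here are the Notch receptors NOTCH1, NOTCH2 and NOTCH3, the ligands DLL1, DLL4, JAG1 and JAG2, and the basic helix-loop-helix factors HES1, HES6 and HEY1. They were chosen by symbol, and all 10 were found among the 28008 gene symbols of the count table. Expression was measured by RNA-seq in NCI-H660 (H660) cells, an androgen receptor-negative line of neuroendocrine prostate cancer (NEPC), and 1 line supplied all 6 libraries. All cells, controls included, carried a MUC1 shRNA in the pLKO-tet-puro vector, which is switched on by doxycycline (DOX), and had been selected in puromycin. DOX-negative cells received 0.1% DMSO as vehicle (3 libraries), and DOX-positive cells received DOX at 500 ng/ml (3 libraries) for 7 days. No library with DOX and a control shRNA was analysed here, so the effect of DOX itself and that of the shRNA cannot be told apart.

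Notch receptors are membrane proteins that are cut when a Delta-like (DLL) or Jagged (JAG) ligand on a neighbouring cell pulls on them. The last cut, by γ-secretase, frees the intracellular domain, which enters the nucleus, binds the DNA-binding protein RBPJ and, with Mastermind-like coactivators, switches on genes such as HES1 and HEY1. HES1 and HEY1 are transcriptional repressors that hold back neural and neuroendocrine differentiation, whereas HES6 opposes HES1, and many neuroendocrine cancers have low Notch activity.

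Total counts ranged from 47620696 to 74061121 per library. All 10 Notch genes passed the filter on low counts, with means from 124.7 counts per library for DLL4 to 8497 for DLL1. The targeted gene, MUC1, had 79.6 to 90.2 CPM (read counts relative to library size, with a correction for composition) without DOX and 29.9 to 37.2 CPM with DOX, and it fell by 1.32 on the log2 scale (SE 0.096, adjusted p = 0.00017, edgeR). Of the 17026 genes tested, 829 were called at an adjusted p under 0.05, which is 4.87%, with 2.91% called higher and 1.96% called lower with DOX.

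HES1 was the member that passed the test, and it rose with DOX. It had 20.2, 21.1 and 18.9 CPM in DOX-negative replicates 1, 2 and 3, and 25.3, 28.9 and 29.6 CPM in DOX-positive replicates 1, 2 and 3. All 3 DOX-positive libraries were above all 3 DOX-negative libraries, and the difference between the group means exceeded the SD of either group. HES1 averaged 20.1 ± 1.11 CPM in DOX-negative and 28.0 ± 2.29 CPM in DOX-positive libraries (SD, n = 3). It was 1.39-fold higher with DOX (log2 fold change 0.48, SE 0.091, 95% interval 0.28 to 0.68, adjusted p = 0.015, edgeR). It was called higher alone among the 10 Notch genes (1 of 10, where 2.91% of all tested genes were called higher). Of the 10, 0 were called lower, where 1.96% of all tested genes were. A single call is the smallest count above 0, so it describes HES1 and says nothing about the members as a group. The exact two-sided permutation p for HES1 was 0.10, the smallest that 3 libraries against 3 allow. The counts behind these values were 900 to 2182 per library.

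**Figure D1:**
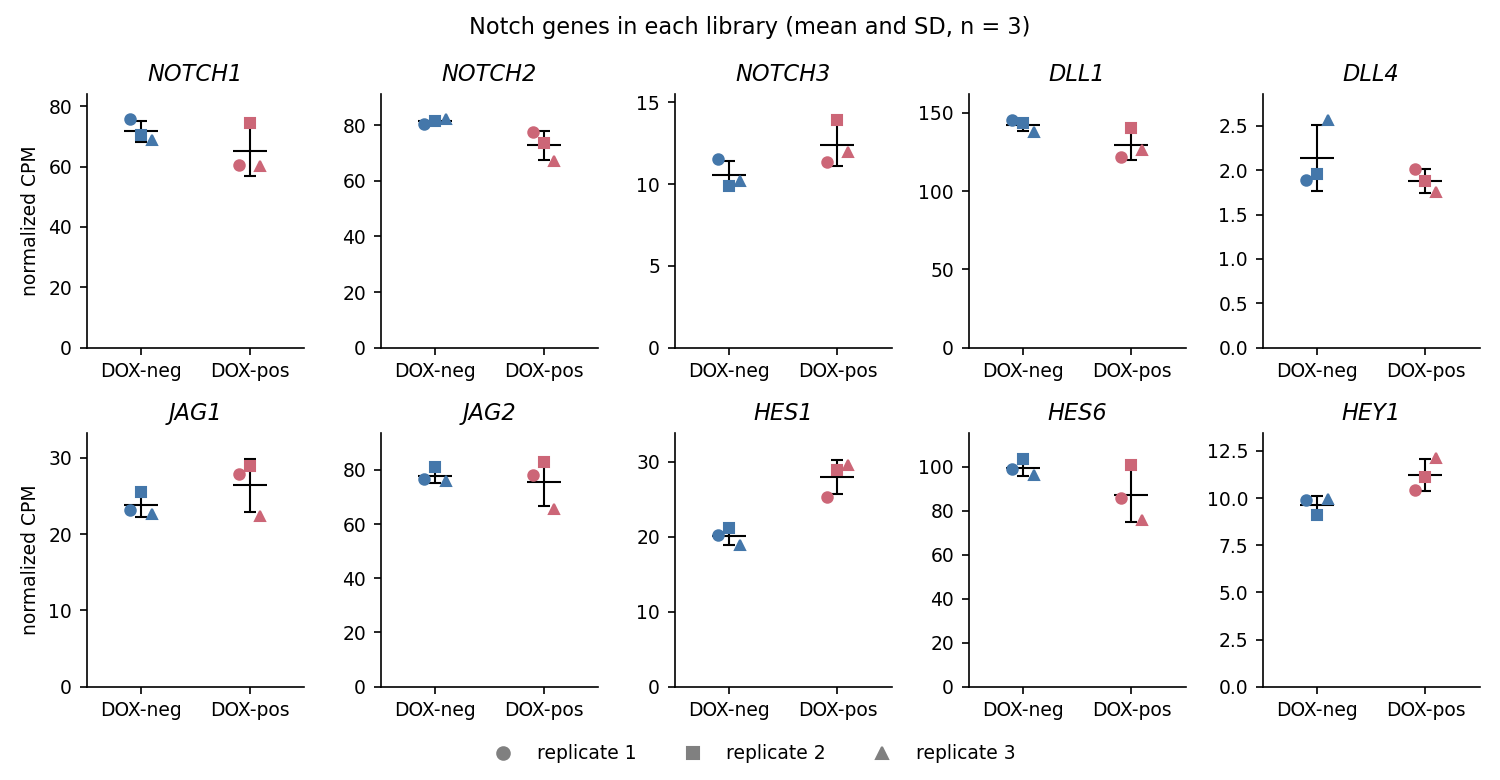
Normalized CPM (linear axis from 0) of each of the 10 genes in DOX-negative and DOX-positive libraries, with a symbol per replicate and the mean and SD (n = 3) as black bars. HES1 is separated between the groups, from 18.9 to 21.1 CPM against 25.3 to 29.6 CPM, whereas most other genes overlap.

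The promoter of HES1 is shown because it is the gene that rose and because it holds letters of the RBPJ site, next to that of HES6, which was not called. Each covers 250 bases before and 50 bases after the start of the gene in RefSeq (GRCh38.p14), 5′ to 3′ along the gene, with TGGGAA, the core of the RBPJ site, in capitals. The HES1 window is chr3:194135898-194136197 on the plus strand and the HES6 window is chr2:238239989-238240288 on the minus strand.
HES1: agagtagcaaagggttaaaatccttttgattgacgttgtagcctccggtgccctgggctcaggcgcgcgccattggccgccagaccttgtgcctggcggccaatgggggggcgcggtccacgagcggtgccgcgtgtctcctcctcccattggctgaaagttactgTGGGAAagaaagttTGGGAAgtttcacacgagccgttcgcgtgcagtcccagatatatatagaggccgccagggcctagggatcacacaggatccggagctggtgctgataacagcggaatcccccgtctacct
HES6: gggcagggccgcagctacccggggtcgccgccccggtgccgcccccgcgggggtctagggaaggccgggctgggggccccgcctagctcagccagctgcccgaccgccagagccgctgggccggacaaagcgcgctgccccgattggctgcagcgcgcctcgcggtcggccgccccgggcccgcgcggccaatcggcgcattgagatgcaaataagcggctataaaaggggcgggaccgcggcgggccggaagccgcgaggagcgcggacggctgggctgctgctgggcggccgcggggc

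The HES1 window held TGGGAA at 2 places, starting at -84 and -70 from the start of the gene and both on the strand of the gene. Of the 8 Notch genes with a promoter in the table, HES1 was the 1 gene with this match, on either strand, and 24.0% of all 35116 promoters had it. The N-box letters CACNAG, read on both strands and known from sites of HES repressors, were found in 5 of the 8, with 4 matches in HES1, against 38.0% of all promoters. CACGTG, an E-box also bound by HES and HEY factors, was found in 0 of the 8, against 7.26% of all promoters. These matches describe letters in the windows, and binding was not measured.

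HEY1, the other classical Notch target among the members, had a smaller difference in the same direction and was not called. Its values were 9.87, 9.08 and 9.93 CPM in the DOX-negative replicates and 10.4, 11.1 and 12.1 CPM in the DOX-positive replicates. The groups did not overlap, but DOX-positive replicate 1 was close to the highest DOX-negative library. The log2 fold change was 0.22 (SE 0.098, 95% interval 0.0074 to 0.43, adjusted p = 0.22).

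HES6, which is abundant in neuroendocrine tumours and interferes with HES1, had lower mean expression with DOX but was not called. HES6 was at 98.9, 103.7 and 96.2 CPM in the DOX-negative replicates and 85.7, 100.8 and 75.7 CPM in the DOX-positive replicates. DOX-positive replicate 2 lay within the DOX-negative range, and the DOX-positive spread (SD 12.6 CPM) exceeded the DOX-negative spread (SD 3.80 CPM). Its log2 fold change was -0.19 (SE 0.097, 95% interval -0.40 to 0.022, adjusted p = 0.29). Without DOX-positive replicate 2 the HES6 change was -0.30 with an adjusted p of 0.043 in edgeR, within a range of 0.043 to 1 over all alternatives. That fit had 4142 genes at an unadjusted p under 0.05, against 3597 with all libraries. Whether the call came from the HES6 values alone or from the fit as a whole was not tested. Without DOX-positive replicate 3 the change was -0.096 (adjusted p = 0.61).

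The balance of HES6 to HES1 was also read within each library, where the scaling of the library cancels. HES6 was 4.93-, 4.94- and 5.12-fold the level of HES1 per length (in TPM, a measure of transcript abundance) in the DOX-negative replicates and 3.40-, 3.50- and 2.57-fold in the DOX-positive replicates. The ratio was lower in every DOX-positive library than in every DOX-negative library (exact two-sided permutation p = 0.10, the smallest possible, and 0.15 after Benjamini-Hochberg adjustment over 6 ratios chosen after the values were seen). The rise of HES1 takes part in this ratio, so the ratio is not a separate result. Among the other 5 ratios, that of HES1 to HEY1 was 3.94 ± 0.40 without DOX and 4.70 ± 0.18 with DOX (SD, n = 3; exact p = 0.10, adjusted 0.15). That of DLL1 to DLL4 overlapped between the groups, at 34.1 ± 6.23 without DOX and 34.7 ± 3.81 with DOX (SD, n = 3; exact p = 0.90).

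**Figure D2:**
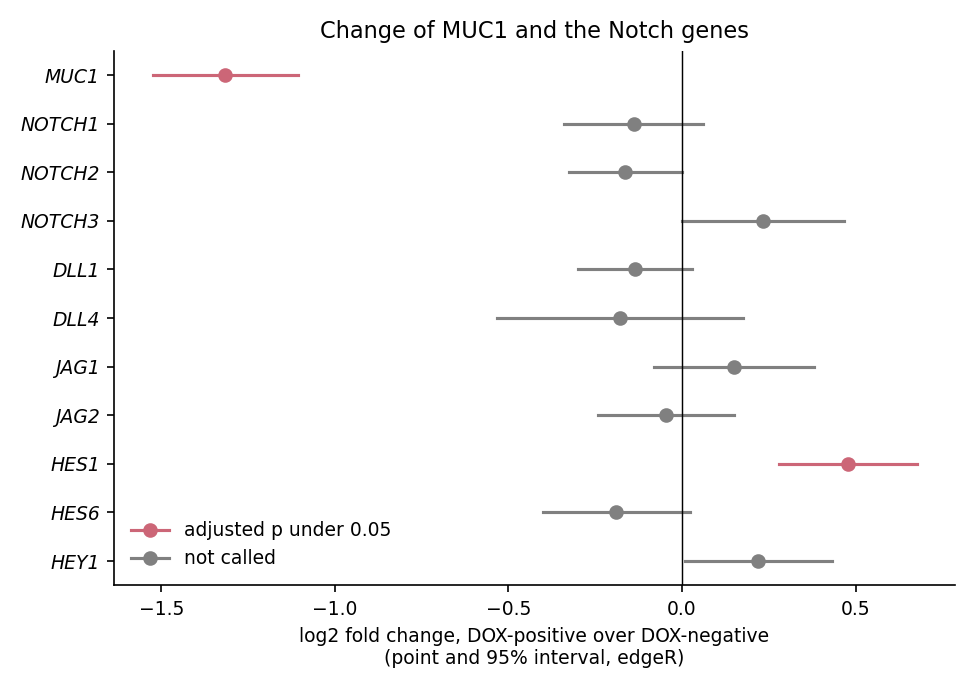
Log2 fold change of DOX-positive over DOX-negative (x axis) for MUC1 and the 10 Notch genes, with the 95% interval from edgeR. The intervals of MUC1 (-1.53 to -1.11) and HES1 (0.28 to 0.68) are farthest from 0, and the estimates of the other Notch genes lie between -0.19 and 0.23.

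None of the 3 receptors was called. NOTCH1, the prototype receptor, had 75.6, 70.5 and 68.8 CPM without DOX and 60.5, 74.5 and 60.3 CPM with DOX. DOX-positive replicate 2 lay among the DOX-negative libraries while the other two were below all of them. NOTCH1 had a log2 fold change of -0.14 (95% interval -0.34 to 0.062, adjusted p = 0.43). Its change was -0.24 without DOX-positive replicate 2 (adjusted p = 0.056) and about -0.087 when DOX-positive replicate 1 or 3 was left out.

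NOTCH2, a paralog with broad expression, was tightly grouped without DOX at 80.4, 81.4 and 82.3 CPM, and had 77.3, 73.4 and 67.2 CPM with DOX. The groups did not overlap, yet the difference was small (log2 fold change -0.16, 95% interval -0.33 to 0.0012, adjusted p = 0.24). The names table lists NOTCH2NLA, NOTCH2NLB, NOTCH2NLC and NOTCH2NLR, near-copies of part of NOTCH2, as genes. These symbols are not in the count table, and how reads shared with them were counted is not given in the sources used here.

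NOTCH3, a receptor best known from vascular smooth muscle, had 11.5, 9.86 and 10.2 CPM without DOX and 11.4, 13.9 and 12.0 CPM with DOX. Here DOX-positive replicate 1 lay within the DOX-negative range. Its log2 fold change, 0.23 (95% interval 0.000030 to 0.47, adjusted p = 0.24), pointed the other way from those of NOTCH1 and NOTCH2, and was 0.15 without DOX-positive replicate 2. Over all members, 3 of the 10 genes (NOTCH2, HES1 and HEY1) had groups without overlap, a share close to the 28.1% of all tested genes. Within libraries, the TPM ratio of NOTCH2 to NOTCH3 was 5.25 ± 0.47 in the DOX-negative and 4.00 ± 0.54 in the DOX-positive group (SD, n = 3; exact p = 0.10, adjusted 0.15), without overlap, and that of NOTCH1 to NOTCH2 was 1.12 ± 0.068 and 1.15 ± 0.15 (exact p = 0.90). Both were among the 6 ratios chosen after the values were seen.

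The ligands were not called either, and their groups overlapped for all 4. DLL1, a canonical Delta-like ligand, had 145.4, 143.5 and 137.8 CPM without DOX and 121.9, 140.2 and 126.5 CPM with DOX (log2 fold change -0.14, 95% interval -0.30 to 0.028, adjusted p = 0.33). DOX-positive replicate 2 again lay closest to the DOX-negative libraries. DLL1 overlaps FAM120B, which had a mean of 4702 counts, in the names table, and reads from the overlap could be assigned to either.

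JAG1, a ligand that is also induced by several growth pathways, had 23.2, 25.6 and 22.7 CPM without DOX and 27.9, 28.9 and 22.4 CPM with DOX. Replicates 1 and 2 with DOX exceeded all DOX-negative libraries, whereas DOX-positive replicate 3 was the lowest of all 6, and the change was 0.15 (95% interval -0.081 to 0.38, adjusted p = 0.46). Leaving out DOX-positive replicate 2 gave a JAG1 change of 0.083, and leaving out DOX-positive replicate 3 gave 0.26. JAG2 had 76.7, 81.0 and 75.9 CPM without DOX and 78.1, 82.8 and 65.6 CPM with DOX, a change of -0.045 (95% interval -0.24 to 0.15, adjusted p = 0.82) that was 0.046 without DOX-positive replicate 3. The ratio of JAG2 to JAG1 was 3.36 ± 0.097 in the DOX-negative and 2.94 ± 0.068 in the DOX-positive group (SD, n = 3), without overlap (exact p = 0.10, adjusted 0.15). It was among the 6 ratios chosen after the values were seen.

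DLL4, the ligand of sprouting endothelial cells, was at 0.25 to 0.40 TPM. It had 1.89, 1.96 and 2.56 CPM without DOX and 2.01, 1.87 and 1.75 CPM with DOX, from 103 to 152 counts per library, so its interval was the widest of the 10 (log2 fold change -0.18, 95% interval -0.53 to 0.18, adjusted p = 0.58). Without DOX-negative replicate 3, its highest library, the DLL4 change was -0.040. A change of the size of HES1 in the upward direction lay outside this interval, but a fall of that size did not. Over the 10 genes the median log2 fold change was -0.090, with 4 above and 6 below 0, and over all tested genes it was 0.00034. In bulk RNA, fewer cells expressing a gene and less of its RNA per cell cannot be told apart, for HES1 or any other gene here.

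Levels were compared between the genes only per length, with the deposited TPM. HES6 had the highest deposited TPM, at 31.4 to 47.3 over the 6 libraries. DLL1 (9.37 to 12.8 TPM) and HES1 (6.63 to 13.0 TPM) followed, and on this deposited scale their order differed by group. DLL1 exceeded HES1 in all 3 DOX-negative libraries (12.3 against 8.65, 12.8 against 9.58 and 9.52 against 6.63 TPM) and was below it in all 3 DOX-positive libraries (12.3 against 13.0, 9.37 against 9.83 and 10.3 against 12.2 TPM). The length behind the TPM was 2.78 times the summed exons for DLL1, against 0.86 times for both HES1 and HES6. DLL1 may thus be understated against both genes, and the switch of order with HES1 holds only on the deposited scale. Whether DLL1 reached the level of HES6 cannot be read from these TPM. In the DOX-negative libraries HES1 was at 8.29 ± 1.51 TPM (SD, n = 3).

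JAG2 came next at 5.97 to 8.96 TPM, below HES1 in all 6 libraries although their ranges overlapped. NOTCH1 (3.35 to 4.50 TPM) exceeded NOTCH2 (2.71 to 4.30 TPM) in 5 of 6 libraries with overlapping ranges, so the main receptors had similar levels. HEY1 (1.85 to 2.84 TPM) and JAG1 (1.74 to 3.12 TPM) were not separable, each being higher in 3 of 6 libraries. NOTCH3 (0.58 to 0.93 TPM) and DLL4 (0.25 to 0.40 TPM) were lowest and separated from each other in all 6 libraries.

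**Figure D3:**
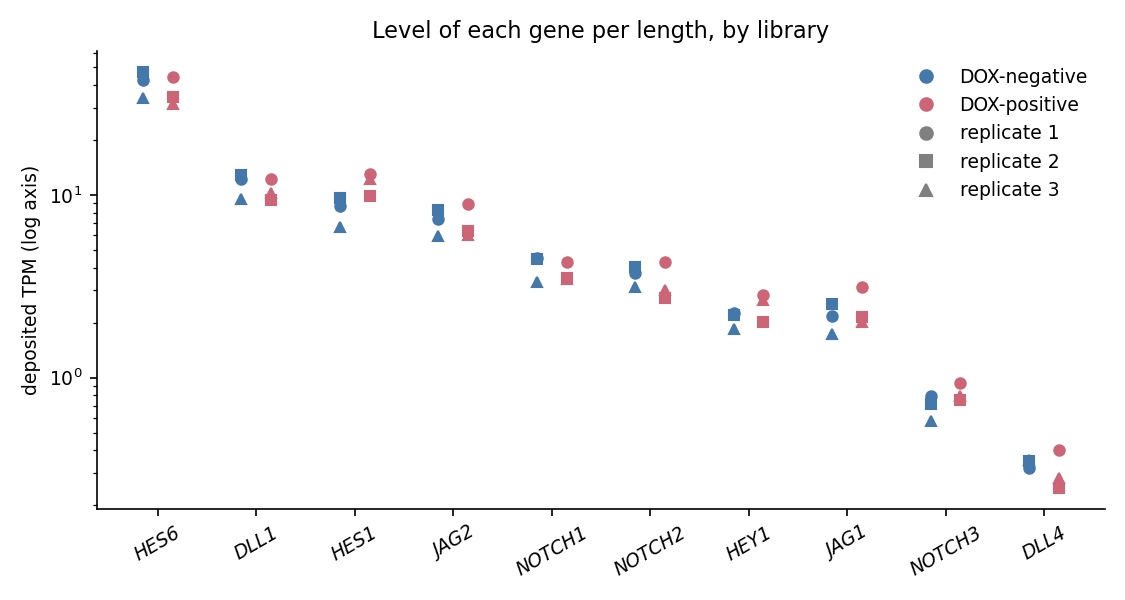
Deposited TPM (log axis) of the 10 genes in each library, ordered by their mean, with colours for the groups and symbols for the replicates. HES6 lies above all others at 31.4 to 47.3 TPM and DLL4 lies lowest at 0.25 to 0.40 TPM, and DLL1 and HES1 overlap. The TPM of DLL1 may be understated against the other genes.

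The TPM scale carried its own limits. The length implied by counts and TPM for DLL1 was 2.78 times the summed exons of GENCODE v29, set against a 5th to 95th percentile of 0.36 to 1.71 over 14275 genes, so its TPM may understate DLL1 relative to the other members, whose lengths were 0.86 to 1.23 times the summed exons. In addition, a structured RNA, RN7SK or SNORD3A, held 25.7% to 34.5% of the TPM of each library. Of the 10 genes, 9 had their lowest DOX-negative TPM in DOX-negative replicate 3, and 10 had their highest DOX-positive TPM in DOX-positive replicate 1.

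To place these genes in the pathway, 80 other genes were read from the same fit by their role, of which 75 passed the filter on low counts. Of these 75, 1 was called higher and 1 lower (background 2.91% and 1.96%), 42 had a log2 fold change above 0 and 33 below, and the median was 0.026. In edgeR 22 of the 75 had an unadjusted p under 0.05, against 21.1% of all tested genes. Groups did not overlap for 26 of the 75, against 28.1% of all tested genes. The called genes were NEDD4, a ubiquitin ligase, and TLE3, a Groucho-type corepressor that HES proteins recruit.

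NEDD4 had 14.4, 11.7 and 12.7 CPM without DOX and 19.1, 17.1 and 22.5 CPM with DOX, all 3 above the DOX-negative libraries. It was 1.52-fold higher (log2 fold change 0.60, SE 0.12, adjusted p = 0.016), and the call was kept in 12 of 17 alternatives and lost in the same 5 as that of HES1. On log2(TPM + 1), a scale that understates the change of low genes, its change was 0.33, filtered or not. TLE3 had 244.1, 248.2 and 234.8 CPM without DOX and 195.0, 211.3 and 192.1 CPM with DOX, without overlap, and fell by 0.28 on the log2 scale (SE 0.071, adjusted p = 0.043). The TLE3 call was lost in 8 of 17 alternatives, among them 5 of the 6 fits without 1 library, with adjusted p values from 0.0066 to 1 over all of them.

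The 9 proteases of receptor maturation and release, which include ADAM10 and the γ-secretase subunits, had 0 calls and 0 genes at an unadjusted p under 0.05 in edgeR, where 21.1% of all tested genes had such a p, and DESeq2 called 0 of them as well. Their log2 fold changes were between -0.15 and 0.13. PSENEN, a γ-secretase subunit with the highest level of this group at 63.3 TPM, changed by 0.060 (95% interval -0.13 to 0.25).

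Among the 8 listed glycosyltransferases, 0 were called and 2 had an unadjusted p under 0.05 in edgeR, against 21.1% of all tested genes. The most abundant, LFNG (Lunatic fringe, 20.6 TPM), averaged 123.3 ± 2.00 CPM in DOX-negative and 109.0 ± 5.14 CPM in DOX-positive libraries (SD, n = 3), a change of -0.18 (adjusted p = 0.17). The other was MFNG (Manic fringe), at -0.57 from 1.37 and 0.92 CPM (adjusted p = 0.12).

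The 17 genes of ubiquitination and trafficking included NEDD4, and the other 16 were not called. In edgeR 6 of the 17 had an unadjusted p under 0.05, against 21.1% of all tested genes. Groups did not overlap for 9 of the 17, against 28.1% of all tested genes. NEURL1B, a ligase that acts on ligands and the most abundant of them, changed by 0.13 (adjusted p = 0.28). DTX3L, of the Deltex family, had 98.7 ± 6.22 and 120.7 ± 12.6 CPM (SD, n = 3), a change of 0.29 (adjusted p = 0.079).

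Of RBPJ and its 8 coactivators, 0 were called and 3 had an unadjusted p under 0.05, against 21.1% of all tested genes. RBPJ itself averaged 140.0 ± 16.9 CPM in DOX-negative and 117.3 ± 20.5 CPM in DOX-positive libraries (SD, n = 3; log2 fold change -0.25, adjusted p = 0.27), and the spread within both groups was large. Without DOX-positive replicate 2 its change was -0.11, and without DOX-negative replicate 3 it was -0.16. SNW1, a nuclear cofactor with the highest level of them, changed by 0.026. The acetyltransferase KAT2B changed by 0.32 (adjusted p = 0.080).

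Of the 16 tested genes in the list of corepressors and related nuclear proteins, TLE3 was the 1 called. Its paralog TLE1 pointed the other way, from 32.6 ± 1.67 to 40.2 ± 2.14 CPM (SD, n = 3; log2 fold change 0.30, adjusted p = 0.056), just outside the threshold. TLE5, held under its older symbol AES, had the highest mean level of this list at 63.6 TPM. It was closely followed by HDAC1 at 61.4 TPM, which exceeded it in DOX-negative replicate 3. AES changed by 0.053.

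Other ligands and HES or HEY genes were read in the same way. Of the 9 other ligands, 7 were tested and 0 called. DLL3, a Delta-like protein that inhibits Notch within the cell and is displayed on neuroendocrine cancers, had 38.3, 45.5 and 42.2 CPM without DOX and 30.8, 35.9 and 24.4 CPM with DOX. The groups did not overlap, and the change was -0.47 (SE 0.13, 95% interval -0.74 to -0.20), but the adjusted p of 0.054 was just above the threshold. Without DOX-positive replicate 2 its change was -0.60 (adjusted p = 0.026). DLL3 was called in 4 of 17 alternatives, with an adjusted p of 0.0048 at the lowest and 1 at the highest.

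DNER, a neuronal Notch ligand, also had lower values with DOX, 62.1 ± 4.82 against 52.2 ± 2.02 CPM (SD, n = 3; log2 fold change -0.25, adjusted p = 0.092). DLK1, an atypical ligand without a DSL domain, had 3.08 ± 0.17 and 4.20 ± 0.48 CPM (log2 fold change 0.44, adjusted p = 0.072). MFAP2, a matrix protein that can bind ligands and the most abundant of the list, changed by -0.026, and its direction turned in 2 of the fits without 1 library.

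HES4, a HES1 relative, was present at 28.7 TPM on average and thus lay between HES6 and HES1. It had 43.1, 43.0 and 39.4 CPM without DOX and 46.2, 59.9 and 45.9 CPM with DOX, without overlap but with DOX-positive replicate 2 far above the others (log2 fold change 0.27, SE 0.11, adjusted p = 0.16), and without that library the change was 0.14. Of the 10 other HES, HEY and target genes, 8 were tested and 0 called, while 4 had an unadjusted p under 0.05, against 21.1% of all tested genes.

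The 4 with an unadjusted p under 0.05 did not share a direction. HES4 was above 0, whereas HES2 (-0.29, adjusted p = 0.14), HEYL and BHLHE40 were below it. HEYL, at 1.33 and 0.92 CPM, changed by -0.53 (adjusted p = 0.099). BHLHE40, a related repressor that responds to hypoxia, changed by -0.58 with a wide spread (42.2 ± 11.6 against 28.1 ± 6.03 CPM, SD, n = 3; adjusted p = 0.20). HEY2 was level between the groups at 3.85 and 3.87 CPM, and NRARP, a feedback inhibitor that Notch switches on, changed by -0.13 (95% interval -0.35 to 0.087, adjusted p = 0.50). HEY1, HEY2, HEYL, HES4 and NRARP were not called, and whether HES1 differed from them was not tested, apart from its ratio to HEY1.

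NOTCH4, the fourth receptor, had 66 to 127 counts per library and changed by 0.12 (adjusted p = 0.74). Its TPM is not interpreted because the implied length was 6.09 times the summed exons.

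**Figure D4:**
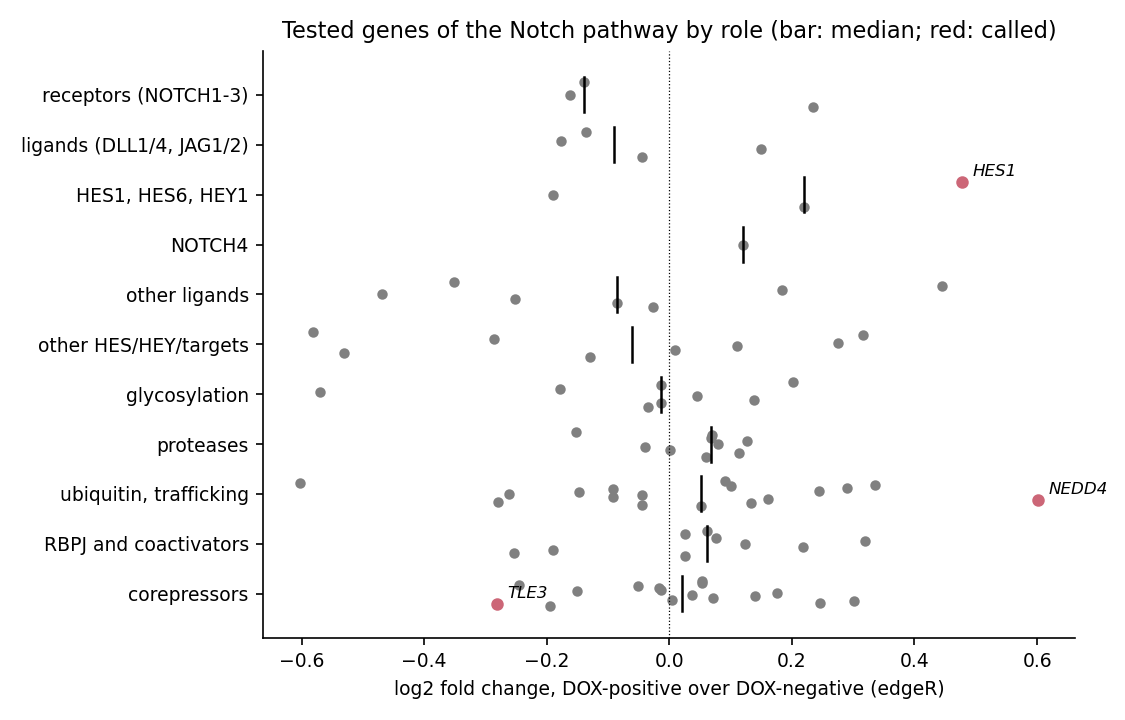
Log2 fold change of DOX-positive over DOX-negative (x axis) of every tested gene by role in the pathway, with a point per gene, the median of each role as a bar, and called genes in red. HES1 (0.48), NEDD4 (0.60) and TLE3 (-0.28) are the called genes, and the proteases lie within -0.15 to 0.13.

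The genes with profiles most like that of HES1 over the 6 libraries, searched over 14586 tested genes averaging 50 counts or more, were PDE4A (Pearson r = 0.997), HLA-DPA1 (0.995) and CDK2 (0.995). These are descriptions over 6 libraries in which the group difference of HES1 takes part. PDE4A, a cyclic AMP phosphodiesterase, changed by 0.58, HLA-DPA1, a class II antigen-presenting chain, by 0.48, and CDK2, a cell cycle kinase, by 0.27.

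The labelled cell type was checked against marker genes. The 6 neuroendocrine markers summed to 99.7 to 141.9 TPM without DOX and 95.8 to 147.9 TPM with DOX, and the 5 luminal and androgen receptor markers to 0.40 to 0.58 and 0.39 to 0.50 TPM, with KLK3 at 0 counts in all libraries. Of the neuroendocrine markers, all 6 were above 1 TPM, and 2, NCAM1 (log2 fold change -0.50, adjusted p = 0.014) and INSM1 (-0.45, adjusted p = 0.039), were called lower with DOX (background 1.96%). The other 4 were not called and did not share a direction, with CHGB at 0.29 without overlap (adjusted p = 0.17), ENO2 at 0.13, SYP at -0.029 and CHGA at -0.20. The 6 fibroblast markers summed to 2.41 to 3.47 TPM without DOX and 2.46 to 3.64 TPM with DOX, with COL3A1 at 0. Of these 6, COL1A1 (0.60) and LUM (1.06) were called higher (background 2.91%), whereas COL1A2, with the highest mean TPM of the list, pointed the other way without overlap (-0.71, adjusted p = 0.20). DCN and PDGFRB had means under 1 count per library. The part of either list in the HES1 result was not tested.

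The 5 endothelial markers were read because endothelial cells use Notch. Their sum was 0.37 to 0.58 TPM without DOX and 0.75 to 0.90 TPM with DOX. Of the 5, 2 were called higher (background 2.91%), CDH5 (log2 fold change 0.94) from 2.29 CPM and VWF (0.97) from 1.51 CPM. KDR, the third marker that was tested, pointed the other way, from 0.81 to 0.48 CPM (-0.74, adjusted p = 0.44). The defining markers PECAM1 and TEK were near 0, with means of 3.33 and 1.00 counts per library, none of the 5 was at 0 in all libraries, and the endothelial ligand DLL4 was not called. The part of these markers in the HES1 result was not tested.

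In the reference used for names (GRCh38.p14), the receptor genes lie at chr9:136494433-136546048 (NOTCH1), chr1:119911553-120069662 (NOTCH2) and chr19:15159038-15200995 (NOTCH3). The ligand genes lie at chr6:170282206-170291078 (DLL1), chr15:40929340-40939073 (DLL4), chr20:10637684-10673999 (JAG1) and chr14:105140995-105168776 (JAG2). HES1 lies at chr3:194136148-194138732, HES6 at chr2:238238267-238240038, and HEY1 at chr8:79764010-79767767, and none of these overlaps another listed gene.

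Across the processing choices the size of the HES1 change was steady and its call was not. The log2 fold change was between 0.43 and 0.54 in all 17 alternatives, and HES1 was called in 12 of them, with adjusted p values from 0.00022 to 1. The call was lost without DOX-negative replicate 2 (0.52, adjusted p = 0.066) and without DOX-negative replicate 3 (0.43, adjusted p = 0.11), where 127 and 58 genes were called in all, and in the 3 fits of log2 TPM, of which the unfiltered one called 0 genes (1248 at an unadjusted p under 0.05, limma). In those TPM fits the HES1 change was 0.45, 0.50 and 0.45.

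**Figure D5:**
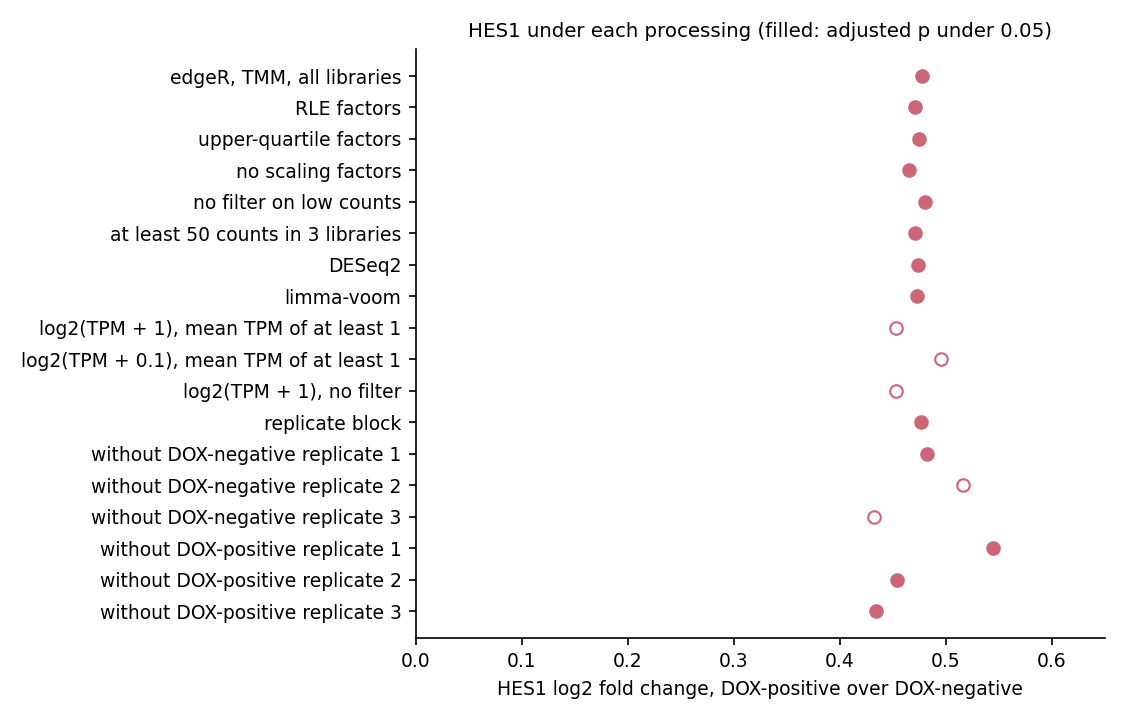
Log2 fold change of HES1 (x axis from 0) in edgeR with all libraries and in each of 17 alternatives, with filled points where the adjusted p was under 0.05. All values lie between 0.43 and 0.54, and 5 alternatives have open points.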

How the data were processed

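The members and lists were chosen with earlier results of these data known. RNA was isolated from triplicate cultures, and libraries were made with a stranded mRNA kit, per the labels. The authors deposited unnormalized read counts for 28008 gene symbols, and TPM, a per-length level, for 25673. The submitters' processing notes name STAR, DESeq2 and GRCh38, and versions, strand setting and annotation are not given in the sources used here. All columns were matched to samples by name, and 0 columns were left without a sample.

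Counts were tested across all genes with edgeR 4.0.16 in R 4.3.3: filterByExpr, TMM factors, robust quasi-likelihood fit, no covariate, and Benjamini-Hochberg adjustment over 17026 genes, calling an adjusted p under 0.05. Fold changes are DOX-positive over DOX-negative. CPM use the TMM factors. Intervals (95%) and SE derive from the F statistic, and the biological coefficient of variation was 9.58%. Alternatives were other scalings, filters, DESeq2 1.42.0, limma 3.58.1 (voom, and log2 TPM with pseudocounts of 1 and 0.1), a replicate block, and leaving out each library. Code was tested on simulated data. Pathway lists were written from general knowledge. Named were all members, called list genes (at most 4 a list) and the gene of each list with the highest TPM; DLL3, DLK1, DNER, HEY2, HEYL, BHLHE40, NRARP, RBPJ, TLE1, KAT2B, DTX3L, MFNG, HES2 and the called cell type markers were added after their values were seen. Promoters came from RefSeq (GRCh38.p14), with entries for 8 of the 10 members, and exon lengths from GENCODE v29.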

Additional observations from a re-analysis of the deposited data

How the results depend on the processing

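HES1 kept its direction in all 17 alternatives. Over the 10 members, 159 of 166 values kept both direction and side of the threshold, 5 (all HES1) lost it, 1 (HES6 without DOX-positive replicate 2) gained it and 1 reversed, JAG2 without DOX-positive replicate 3 (from -0.11 to 0.046 without 1 library). The cause of these moves was not tested.

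Among members, 1 was called in edgeR and 0 in each of the 3 TPM fits, and from 0 to 2 in the fits without 1 library. Of the other pathway genes, 2 were called in edgeR, 4 with no filter on low counts, 8 with DESeq2, 0 in each TPM fit, and from 0 to 9 without 1 library, 0 without DOX-negative replicate 2 or 3 and 9 without DOX-positive replicate 2. Of all genes, 829 were called in edgeR, 1355 with DESeq2, 30 in the TPM fit with a pseudocount of 1, 35 in that with 0.1, both for a mean TPM of 1 or more, 0 in the unfiltered TPM fit (1248 at an unadjusted p under 0.05), and from 58 to 1035 without 1 library. In edgeR 496 calls were higher and 333 lower with DOX, whereas 43.3% and 45.7% were higher in the filtered TPM fits.

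With the replicate block, 998 genes were called, and HES1 changed by 0.48 (adjusted p = 0.0048). With the group means subtracted, the 2 libraries sharing a number correlated at -0.57, 0.022 and -0.077 for replicates 1, 2 and 3. Libraries with different numbers gave no value to compare with these, so whether the numbers pair the libraries cannot be told from them. The block raised DLL3 past the threshold.

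Among the other 23 named pathway genes, 347 of 381 values kept both, 13 lost and 14 gained the threshold, and 7 reversed, all without 1 library: MFAP2 (-0.13 to 0.062), PSENEN (-0.023 to 0.12), SNW1 (-0.065 to 0.085) and HEY2 (-0.052 to 0.058). Leaving out DOX-positive replicate 2 brought DLL3, DTX3L, HES2 and KAT2B past the threshold, and leaving out DOX-negative replicate 1 or DOX-positive replicate 1 brought BHLHE40 past it. NOTCH3, DLL4 and other genes under the TPM minimum gave no value in the filtered TPM fits.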
